A study of Xenopus laevis with 45 samples.

Results

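The muscle regulatory factor genes of Xenopus laevis were followed in whole embryos after knockdown of erythroferrone (ERFE). They were taken as every row of the count tables named for 1 of 6 symbols: myod1, myf5, myf6, myog, msc and mef2c. X. laevis is an allotetraploid frog, and most genes are kept as a copy on a long chromosome (L) and a copy on a short chromosome (S). Each of the 6 symbols had both, which gave 12 gene copies of the 45038 genes listed, and all 12 passed the filter on low counts that left 31817 genes for testing.

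ERFE MO1 was injected at 10 ng and ERFE MO2 at 20 ng, each morpholino into the 4 vegetal blastomeres of embryos at the 8-cell stage. The references were embryos given 10 ng or 20 ng of a standard control morpholino (cMO) and uninjected embryos. Whole embryos were collected at stages 35/36, 37/38 and 41, with 3 libraries for each of the 15 groups (45 in all). No strain or mutant allele is named in the labels, a morpholino is an antisense oligonucleotide that lowers expression without changing the gene, and the sequences and target sites of MO1 and MO2 were not used here. Whether the 3 libraries of 1 group are separate clutches is not stated in the labels, so p-values measure the spread between these libraries, which may be partly technical.

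Libraries held 19342567 to 41922031 gene counts (median 32828061). The ERFE gene, listed as fam132b.L, stood at 1.39 to 9.15 CPM (read counts scaled to library size) over all libraries and was called in none of the 6 ERFE comparisons (edgeR, adjusted p of 0.53 to 1). Its log2 fold changes with ERFE MO1 were 0.05 ± 0.41 (SE), -0.55 ± 0.40 and -0.54 ± 0.39 over the stages. With ERFE MO2 they were -0.17 ± 0.41, -0.78 ± 0.40 and -0.855 ± 0.399. With these errors a fall of the RNA was neither shown nor excluded. A morpholino can act on translation and leave the RNA in place. No copy in the marker lists used below was at 0 throughout a group, and the 32 listed copies of differentiated skeletal muscle genes summed to 18970 to 29830 CPM over the libraries. One library stands apart from its label. The library labelled ERFE MO2, stage 35/36, replicate 1 differed from ERFE MO1, stage 37/38, replicate 2 by a chi-square of 1.22 per gene. That is close to the value of counting noise alone. The next closest of 990 pairs of libraries differed by 3.78. The closest pair within a group, uninjected stage 37/38 replicates 1 and 2, differed by 10.2. The library labelled ERFE MO2 may thus not be a separate ERFE MO2 sample. Whether samples were mixed up or a library was entered again under another label was not tested. Both libraries of the closest pair are kept under their labels in the main fit. Where leaving out either of them changed a call or a reported order of the 12 copies in a comparison that holds it, the value without it is given below.

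The MyoD family are basic helix-loop-helix transcription factors that turn mesoderm cells into skeletal muscle. Myf5 and MyoD commit cells to the lineage, myogenin (myog) drives myoblasts to differentiate, and Myf6 (MRF4) acts in the same family and is best known from maturing fibres. Mef2c is a MADS-box factor that acts with them on muscle promoters and also works in heart, vessels and neurons. Musculin (msc, also called MyoR) is a related helix-loop-helix repressor that opposes MyoD and, in mouse, is needed with Tcf21 for jaw muscles. The embryos sampled already hold trunk somites and a heart.

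In uninjected embryos the 6 genes did not move together between stage 35/36 and stage 41. Both copies of mef2c and of msc and the L copy of myog rose, both copies of myod1 and the S copy of myf5 fell, and the remaining 4 copies passed no test. These 8 calls of 12 compare with 43.1% of all tested genes called between those stages (edgeR quasi-likelihood test, Benjamini-Hochberg adjusted p under 0.05). Between stage 37/38 and 35/36 only mef2c.L was called, where 0.0723% of all genes were, and between stage 41 and 37/38 the calls were mef2c.L, mef2c.S, myod1.L and myod1.S, where 30.1% were. In that last step the call of myod1.S was lost without replicate 1 or 3 of uninjected stage 37/38 (adjusted p = 0.19 and 0.053), without replicate 1 or 3 of stage 41 (0.073 and 0.08) and in a fit of those 6 libraries alone (0.065), and that of mef2c.S without replicate 1 of stage 37/38 (0.07).

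The determination factors went down. In uninjected embryos of stage 35/36 myod1.L stood at 14.7, 15.7 and 17.1 CPM. Stage 37/38 gave 17.4, 12.8 and 18.4 CPM, and stage 41 gave 8.11, 10.2 and 10.8 CPM. All 3 libraries of stage 41 lay below all 6 of the earlier stages. Over all genes, 24.6% lay wholly lower at stage 41 than at 35/36 and 21.4% wholly lower than at 37/38. The log2 fold change of myod1.L was -0.71 ± 0.14 (SE) at stage 41 against 35/36 (edgeR, adjusted p = 8.8e-05). Against 37/38 it was -0.74 ± 0.14 (adjusted p = 0.00017). The S copy fell by 0.68 ± 0.18 on the log2 scale at stage 41 against 35/36 (edgeR, adjusted p = 0.0025). For myf5, which marks the earliest committed cells, the S copy had 3.44, 3.33 and 3.37 CPM at stage 41, against 5.33, 7.98 and 5.20 CPM at stage 35/36, a log2 fold change of -0.87 ± 0.26 (edgeR, adjusted p = 0.0069). Its L copy changed by -0.18 ± 0.22 and was not called. Without replicate 2 of uninjected stage 35/36, the highest of those 3 libraries, the adjusted p of myf5.S was 0.068.

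The differentiation factor myog peaked in the middle stage by its group means, but the peak was not called. At stage 35/36 its L copy had 7.56, 5.06 and 7.72 CPM. Stage 37/38 gave 9.79, 11.1 and 13.5 CPM, and stage 41 gave 10.7, 10.6 and 9.32 CPM. The groups of stages 37/38 and 35/36 did not overlap for either copy, where 9.03% of all genes lay wholly higher. The log2 fold change was 0.76 ± 0.19 for myog.L and 0.85 ± 0.21 for myog.S (edgeR, adjusted p = 0.11 for each). By DESeq2 the adjusted p was 0.023 for each, among 216 genes called in all. At stage 41 against 35/36 myog.L was called higher at 0.59 ± 0.19 (adjusted p = 0.012), a call that was lost without replicate 2 of uninjected stage 35/36 (adjusted p = 0.1). In uninjected embryos myf6.L stayed within 4.85 and 6.88 CPM. myf6.S had 9.19 to 9.36 CPM at stage 35/36, 7.92 to 10.2 CPM at stage 37/38 and 11.2 to 12.4 CPM at stage 41. Its stage 41 libraries thus lay above all earlier ones. Over all genes, 24.8% lay wholly higher at stage 41 than at 35/36 and 21.6% wholly higher than at 37/38. Neither copy of myf6 was called between any 2 stages.

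The partner and the repressor went up. In uninjected embryos of stage 35/36 mef2c.L had 31.0, 33.2 and 30.1 CPM. Stage 37/38 gave 39.5, 50.2 and 51.2 CPM, and stage 41 gave 78.0, 78.2 and 75.0 CPM. It rose at every step, by a log2 fold change of 0.58 ± 0.10 (edgeR, adjusted p = 0.047) and then of 0.71 ± 0.10 (adjusted p = 8.2e-06), and stood 1.29 ± 0.10 higher at stage 41 than at 35/36 (adjusted p = 1.9e-10). The first of these steps missed the threshold without filtering low counts (adjusted p = 0.059) and in a fit of those 6 libraries alone (0.17), and it was lost without any 1 of 4 libraries of the comparison (0.14 to 0.33) or of 7 others (0.051 to 0.059). The S copy rose by 0.60 ± 0.09 over the whole interval (adjusted p = 6.2e-06). The repressor msc was low throughout: at stage 35/36 msc.S had 1.55, 2.27 and 2.26 CPM. Stage 37/38 gave 4.17, 3.47 and 3.73 CPM, and stage 41 gave 4.64, 4.29 and 4.89 CPM. It was 1.18 ± 0.34 higher on the log2 scale at stage 41 than at 35/36 (adjusted p = 0.0059), and msc.L was 1.64 ± 0.44 higher (adjusted p = 0.0029).

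**Figure D1:**
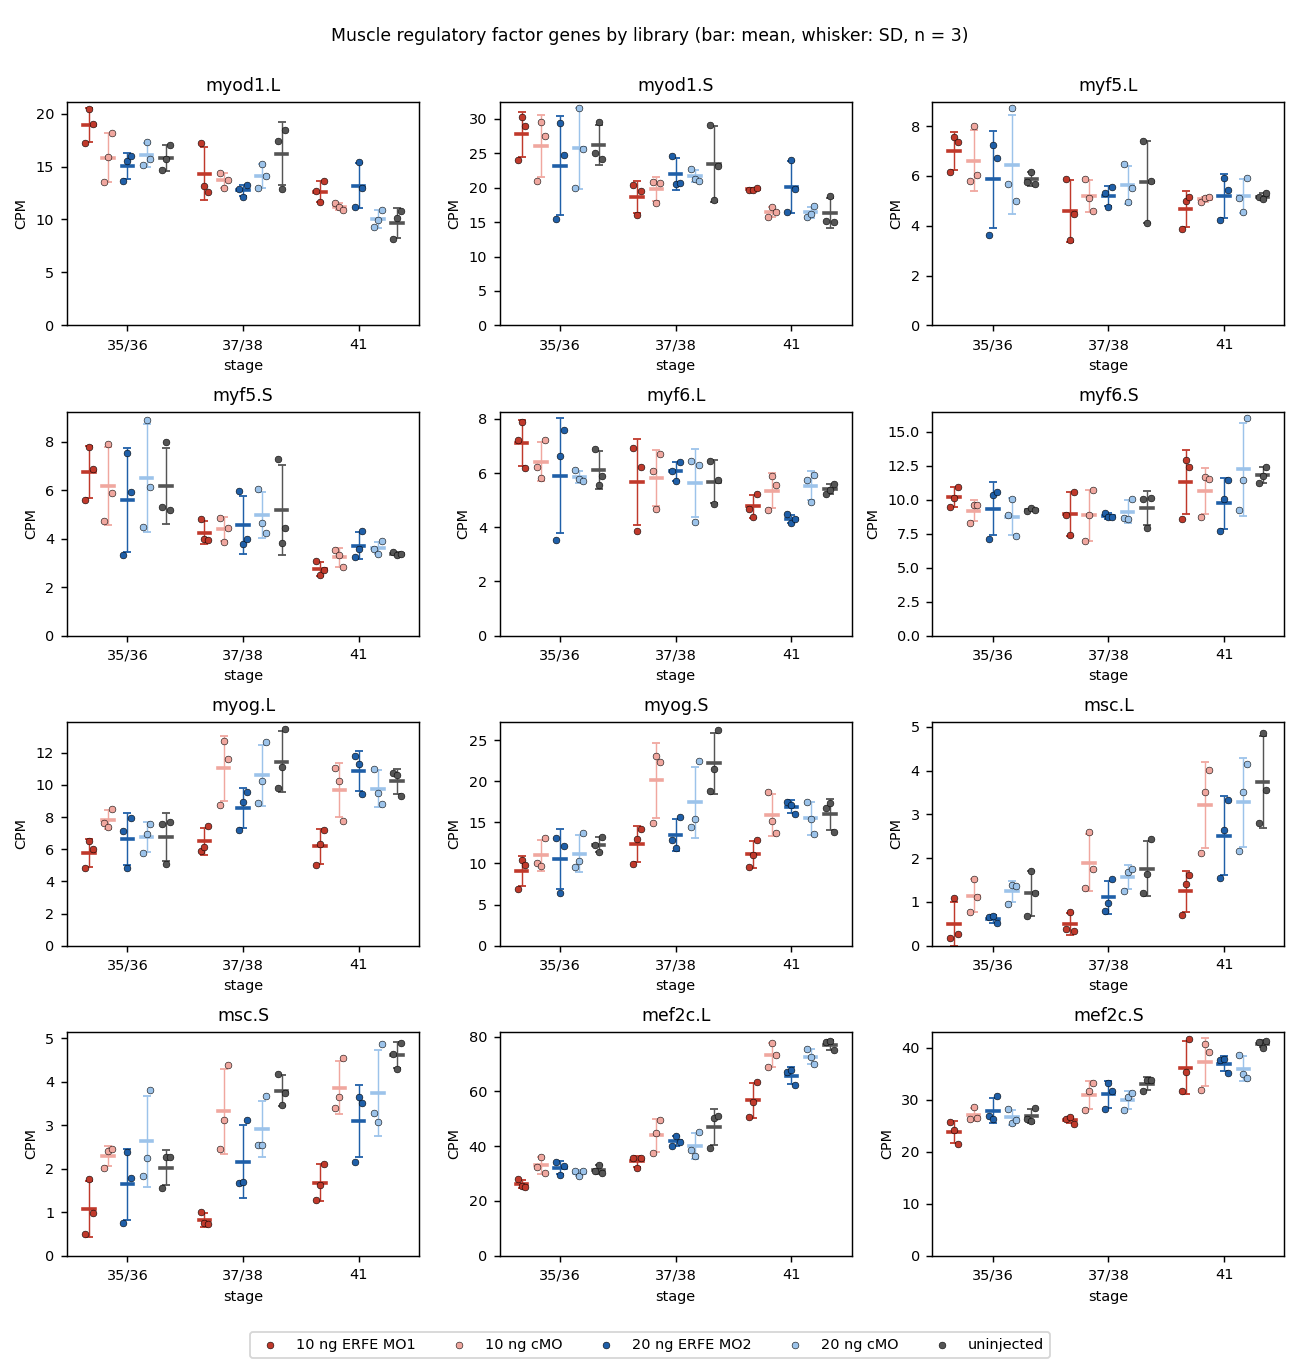
CPM of the 12 gene copies in each of the 45 libraries, by stage (x axis) and condition (colour); points are libraries, bars the mean of 3 and whiskers the SD. Both msc panels show the ERFE MO1 libraries of stage 37/38 at 0.327 to 1.01 CPM, below every 10 ng cMO library of that stage.

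ERFE MO1 lowered both copies of the repressor msc at stage 37/38, with the largest log2 fold changes of the 12 copies there. msc.S had 1.01, 0.756 and 0.720 CPM in ERFE MO1 embryos, against 2.45, 3.11 and 4.38 CPM in 10 ng cMO embryos. The groups did not overlap, nor did those of the L copy, with 0.375, 0.779 and 0.327 CPM in ERFE MO1 embryos against 1.33, 2.61 and 1.75 CPM in 10 ng cMO embryos. msc.S was 3.97-fold lower, a log2 fold change of -1.99 ± 0.37 (edgeR, adjusted p = 0.0029), and msc.L was 3.75-fold lower, at -1.91 ± 0.47 (adjusted p = 0.045).

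The L copy of the differentiation factor myog was also lower at that stage. myog.L had 5.89, 6.14 and 7.43 CPM in ERFE MO1 embryos, against 8.77, 12.7 and 11.6 CPM in 10 ng cMO embryos, so that the groups did not overlap. The log2 fold change was -0.77 ± 0.19 (edgeR, adjusted p = 0.048). myog.S had 9.93, 12.9 and 14.2 CPM in ERFE MO1 embryos against 14.9, 23.1 and 22.4 CPM in 10 ng cMO embryos, at -0.70 ± 0.21, which was not called (adjusted p = 0.16). In whole embryos, fewer cells that express a gene and less RNA per cell cannot be told apart.

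At stage 37/38, 3 of the 12 copies were called, all lower, where 0.6% of all genes were called with ERFE MO1 and 0.0974% were called lower. The 12 copies were chosen with earlier results of these data known, and L and S copies of a gene are counted separately. The shares of all genes, here and elsewhere, are thus a background and no test of the set. The 6 copies of myog, msc and mef2c each had all 3 ERFE MO1 libraries below all 3 of 10 ng cMO, against 7.73% of all genes, and 6 copies had an unadjusted p under 0.05, against 7.21%. The median log2 fold change was -0.21 over the 12 copies and -0.0034 over all genes. For the same 12 copies it was -0.12 with 10 ng cMO and -0.13 with 20 ng cMO against uninjected embryos of that stage, and the first of these shares the 10 ng cMO libraries. mef2c.L was at 35.7, 31.9 and 35.6 CPM in ERFE MO1 embryos and at 37.6, 44.9 and 49.6 CPM in 10 ng cMO embryos, at -0.36 ± 0.10 (edgeR, adjusted p = 0.11; DESeq2, adjusted p = 0.043). Without ERFE MO1 replicate 2 it was at -0.31 ± 0.11 (edgeR, adjusted p = 0.37).

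In the main fit, which has no term for the replicate number, the calls for myog.L and msc.L sit at the threshold. Only msc.S held when any 1 of the 45 libraries was left out. msc.L missed without ERFE MO1 replicate 1 or 3 (adjusted p = 0.27 and 0.19), without 10 ng cMO replicate 1, 2 or 3 (0.057, 0.3 and 0.11) and without any 1 of 12 libraries of other groups (0.051 to 0.054). myog.L missed without ERFE MO1 replicate 1, 2 or 3 (0.27, 0.16 and 0.066), without 10 ng cMO replicate 2 or 3 (0.3 and 0.21) and without any 1 of 19 libraries of other groups (0.051 to 0.059). In a fit of these 6 libraries alone none of the 3 was called (0.063 for msc.S, 0.2 for msc.L and 0.22 for myog.L). A fit with the replicate number as a block called 5 of the 12 copies, with 1158 of all 31817 genes called. The 5 were msc.S, msc.L, myog.L, myog.S (edgeR, adjusted p = 0.011) and mef2c.L (0.021). Without ERFE MO1 replicate 2, which resembles the library that stands apart, msc.S was at -1.93 ± 0.42 (0.017) and msc.L at -2.42 ± 0.55 (0.025). Over 52 alternatives, uninjected controls aside, the adjusted p (edgeR or DESeq2) of msc.S ran from 9.1e-06 to 0.063, with 51 under 0.05. That of msc.L ran from 7.1e-05 to 0.3, with 34 under 0.05. For myog.L the range was 0.0014 to 0.3, with 26 under 0.05.

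At stage 41 ERFE MO1 lowered mef2c.L, and the 4 copies of msc and myog lay lower without a call by edgeR, while DESeq2 also called 3 of them among 732 genes in all. mef2c.L had 50.5, 56.1 and 63.5 CPM in ERFE MO1 embryos, against 68.8, 77.6 and 73.1 CPM in 10 ng cMO embryos. The 2 groups did not overlap, and the log2 fold change was -0.37 ± 0.10 (edgeR, adjusted p = 0.047). The ERFE MO1 group of stage 41 (56.7 ± 6.50 CPM, SD, n = 3) lay between the 10 ng cMO groups of stages 37/38 (44.0 ± 6.02 CPM) and 41 (73.2 ± 4.42 CPM). mef2c.S, at 31.7, 35.3 and 41.7 CPM in ERFE MO1 embryos and 32.0, 40.7 and 39.3 CPM in 10 ng cMO embryos, overlapped and was at -0.04 ± 0.09. This 1 call of 12 compares with 1.51% of all genes called and 0.534% called lower, and 5 copies had an unadjusted p under 0.05, against 11.9% of all genes.

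Both msc copies stayed low at stage 41. msc.S had 1.27, 1.63 and 2.12 CPM in ERFE MO1 embryos, against 3.40, 3.65 and 4.55 CPM in 10 ng cMO embryos (log2 fold change -1.21 ± 0.35; adjusted p = 0.071 by edgeR and 0.02 by DESeq2). msc.L had 0.702, 1.40 and 1.62 CPM in ERFE MO1 embryos, against 2.12, 3.52 and 4.02 CPM in 10 ng cMO embryos (-1.38 ± 0.44; 0.11 by edgeR and 0.046 by DESeq2). myog.L had 5.05, 6.32 and 7.17 CPM in ERFE MO1 embryos, against 11.03, 10.3 and 7.78 CPM in 10 ng cMO embryos (-0.65 ± 0.19; 0.079 by edgeR and 0.025 by DESeq2). None of these groups overlapped: 5 of the 12 copies lay wholly lower, where 5.06% of all genes did. With a lane term the same 3 copies were called (edgeR, adjusted p = 0.0074 for msc.S, 0.036 for msc.L and 0.021 for myog.L), with 1566 genes called in all. With the replicate block all 4 of the msc and myog copies were called lower as well (adjusted p = 0.001 for msc.S, 0.00058 for msc.L, 0.0046 for myog.L and 0.039 for myog.S), where that fit called 4256 of all 31817 genes. Without the library that stands apart, which is in neither group but adds to the shared spread, msc.S was called (adjusted p = 0.034).

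The commitment factor went the other way at stage 41 without reaching the threshold. myod1.S had 19.7, 19.6 and 20.0 CPM in ERFE MO1 embryos, against 15.8, 17.2 and 16.5 CPM in 10 ng cMO embryos, and myod1.L had 12.7, 11.6 and 13.6 CPM in ERFE MO1 embryos, against 11.6, 11.2 and 10.9 CPM in 10 ng cMO embryos. These 2 of 12 copies lay wholly higher, against 6.44% of all genes. Their log2 fold changes were 0.26 ± 0.18 and 0.17 ± 0.13, and neither was called (edgeR, adjusted p = 0.62 and 0.67). The call of mef2c.L was lost without ERFE MO1 replicate 1 or 2 (adjusted p = 0.1 and 0.15), without 10 ng cMO replicate 1, 2 or 3 (0.051, 0.15 and 0.12), without any 1 of 12 libraries of other groups (0.05 to 0.056) and in a fit of the 6 libraries alone (0.61).

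At stage 35/36 no copy was called with ERFE MO1 by edgeR or by DESeq2, where 0.39% of all genes were called, and 4 had an unadjusted p under 0.05, against 6.38% of all genes. msc.S had 0.492, 1.76 and 0.990 CPM in ERFE MO1 embryos, against 2.02, 2.40 and 2.45 CPM in 10 ng cMO embryos, and msc.L had 0.174, 1.08 and 0.256 CPM in ERFE MO1 embryos, against 0.772, 1.53 and 1.11 CPM in 10 ng cMO embryos. Replicate 2 of ERFE MO1 was the highest of its group for both copies, and only msc.S did not overlap. With it myog.L and both mef2c copies lay wholly lower, 4 of 12 copies against 6.25% of all genes. The log2 fold changes were -1.10 ± 0.36 for msc.S and -1.20 ± 0.48 for msc.L (edgeR, adjusted p = 0.33 and 0.58). Without that replicate they were -1.63 and -2.40 (0.047 and 0.02). Since it was the highest of its group, leaving it out had to deepen both falls. Of the 45 libraries it was the only one whose removal gave a call for either msc copy here. With the replicate block the log2 fold changes were -1.15 ± 0.27 for msc.S and -1.27 ± 0.33 for msc.L (0.015 and 0.033), where that fit called 795 genes in all. The block also called mef2c.L (-0.33 ± 0.09, 0.039), which had 27.9, 25.6 and 25.0 CPM in ERFE MO1 embryos against 32.3, 36.2 and 30.4 CPM in 10 ng cMO embryos.

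The size of the ERFE MO1 response was not shown to differ between stage 41 and either earlier stage. Its difference between stages 37/38 and 35/36 was not tested. Tested as a difference of responses between stages 41 and 35/36, and between stages 41 and 37/38, no copy was called by edgeR or DESeq2 and none had an unadjusted p under 0.05, where edgeR called 0.00629% and 0% of all genes and 3.4% and 3.16% had an unadjusted p under 0.05. For msc.S the difference between stages 41 and 37/38 was 0.78 with a 95% interval of -0.23 to 1.79, and without ERFE MO1 replicate 2 of stage 37/38 it was 0.70 ± 0.54, so the data leave room for a difference either way.

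The determination factors and myf6 gave no call with ERFE MO1 at any stage. The log2 fold changes at stage 37/38 were 0.07 ± 0.13 for myod1.L and -0.09 ± 0.18 for myod1.S, and for myf5.L the 95% interval ran from -0.63 to 0.27. Those for myf6 ran from -0.45 to 0.37 for L and from -0.36 to 0.40 for S, which leaves room for changes of either sign within them. Lanes were near balanced, with 16 of 18 same-numbered ERFE and cMO libraries on 1 lane. msc.L, msc.S, myog.L and mef2c.L were lower in each of the 3, 3 and 2 such pairs of ERFE MO1 and 10 ng cMO over the stages.

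**Figure D2:**
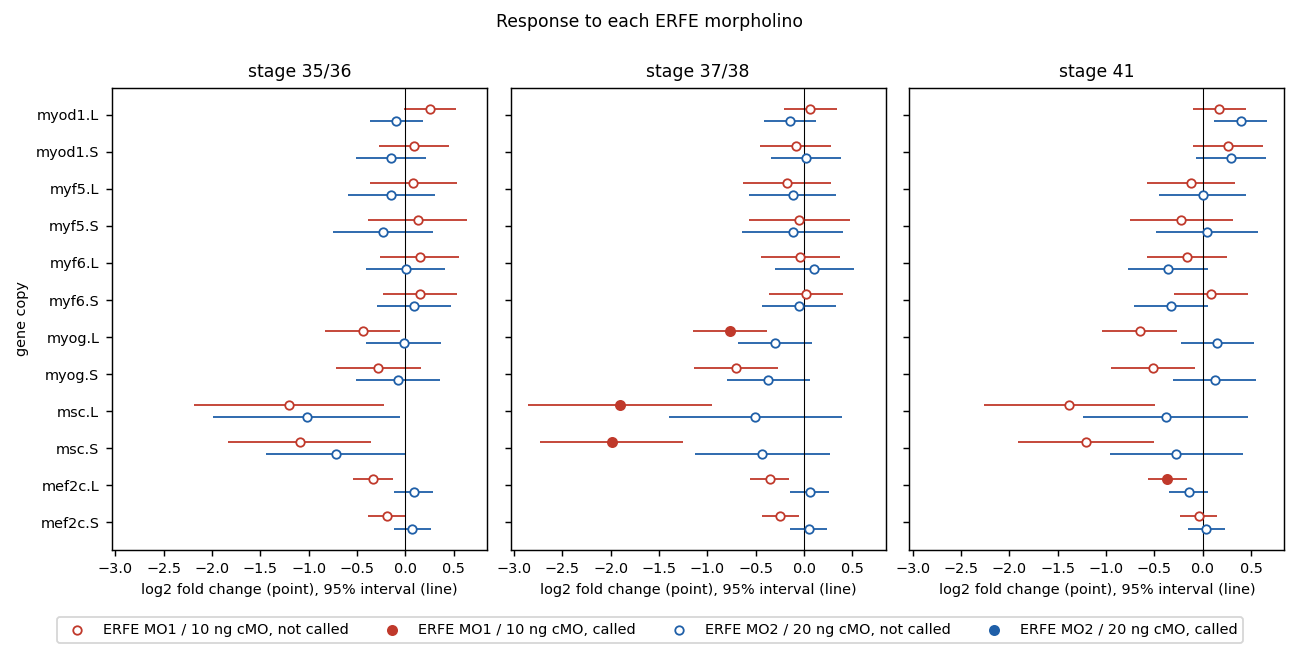
Log2 fold change with its 95% interval (x axis) of each gene copy (rows) with ERFE MO1 against 10 ng cMO and with ERFE MO2 against 20 ng cMO, 1 panel a stage; filled points passed an adjusted p of 0.05. The filled points are the ERFE MO1 values of msc.S, msc.L and myog.L at stage 37/38 and of mef2c.L at stage 41.

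In the main fit, which has no term for the replicate number, ERFE MO2 gave no call for any copy at any stage. With the replicate block 1 copy was called at stage 41, as given below. By edgeR 0 of 12 copies passed at stages 35/36, 37/38 and 41, where 0.0189%, 0.0974% and 0.412% of all genes did; DESeq2 called none, and 2, 0 and 1 copies had an unadjusted p under 0.05, against 5.35%, 5.2% and 8.69% of all genes. At stage 37/38 msc.S had 1.67, 1.69 and 3.13 CPM in ERFE MO2 embryos, against 2.54, 2.55 and 3.66 CPM in 20 ng cMO embryos, and msc.L had 0.803, 0.986 and 1.51 CPM in ERFE MO2 embryos, against 1.25, 1.69 and 1.75 CPM in 20 ng cMO embryos. The groups overlapped, although each ERFE MO2 library lay below the 20 ng cMO library of its number. The log2 fold changes were -0.43 ± 0.34 and -0.50 ± 0.44 (95% intervals of -1.13 to 0.26 and of -1.40 to 0.39). myog.L had 7.19, 8.95 and 9.59 CPM in ERFE MO2 embryos of that stage, against 8.88, 10.3 and 12.7 CPM in 20 ng cMO embryos, and myog.S had 12.9, 11.9 and 15.7 CPM in ERFE MO2 embryos, against 14.5, 15.4 and 22.5 CPM in 20 ng cMO embryos. Both groups overlapped while each numbered pair was lower with ERFE MO2, at -0.30 ± 0.19 and -0.37 ± 0.21 (edgeR, adjusted p = 1 for each).

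For msc.L the lowest ERFE MO2 values were those of stage 35/36. It had 0.657, 0.672 and 0.508 CPM in ERFE MO2 embryos, against 0.957, 1.39 and 1.37 CPM in 20 ng cMO embryos, the only copy of the 12 whose groups did not overlap there, against 4.57% of all genes on that side (10% without the library that stands apart, when 2 other copies lay wholly higher, against 9.79% of all genes). Its log2 fold change was -1.02 ± 0.48 (edgeR, adjusted p = 0.91), and -1.09 ± 0.56 without the library that stands apart (0.97). msc.S was at -0.72 ± 0.35 with that library and at -0.35 ± 0.36 without it (adjusted p = 0.93 and 1), and the 2 other libraries had 2.38 and 1.78 CPM, above the lowest ERFE MO2 values of stage 37/38. That library held the lowest ERFE MO2 value of its stage for both copies of myod1, myf5 and myf6 as well as for msc.S.

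At stage 41 with ERFE MO2, mef2c.L and myf6.L lay lower and myod1.L higher, with no call. mef2c.L had 67.2, 67.8 and 62.2 CPM in ERFE MO2 embryos, against 75.6, 72.6 and 69.9 CPM in 20 ng cMO embryos, a log2 fold change of -0.15 ± 0.10 (edgeR, adjusted p = 0.8). myf6.L had 4.47, 4.16 and 4.30 CPM in ERFE MO2 embryos, against 5.74, 4.92 and 5.92 CPM in 20 ng cMO embryos, at -0.36 ± 0.20 (adjusted p = 0.68). myod1.L had 11.2, 15.4 and 12.9 CPM in ERFE MO2 embryos, against 9.25, 9.94 and 10.9 CPM in 20 ng cMO embryos, at 0.39 ± 0.13 (adjusted p = 0.24). The groups of these 3 copies did not overlap; 2 of 12 copies lay wholly lower and 1 wholly higher, where 5.05% and 5.63% of all genes did. With the replicate block myod1.L was called (adjusted p = 0.039), where that fit called 1846 genes in all. Tested as a difference of the ERFE MO2 responses at stages 41 and 37/38, edgeR and DESeq2 called no copy, where edgeR called 0% of all genes. Only myod1.L had an unadjusted p under 0.05 there (0.54 ± 0.19), against 2.04% of all genes. For myog, myog.L had 11.8, 11.3 and 9.43 CPM in ERFE MO2 embryos and 11.02, 9.48 and 8.81 CPM in 20 ng cMO embryos (0.15 ± 0.19). The groups of both msc copies overlapped at stage 41. msc.S was at 3.09 ± 0.828 CPM (SD, n = 3) in ERFE MO2 embryos and 3.73 ± 0.981 CPM in 20 ng cMO embryos. msc.L was at 2.51 ± 0.905 CPM and 3.275 ± 1.018 CPM in the same groups. Of the 3 numbered pairs, msc.L was lower with ERFE MO2 in 3 and msc.S in 2.

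The responses to the 2 morpholinos, which differ in amount, were compared by testing their difference. By edgeR no copy was called at any stage, where 0%, 0.0409% and 0% of all genes were; DESeq2 called none, and 1, 4 and 2 copies had an unadjusted p under 0.05, against 2.34%, 3.45% and 3.29% of all genes. At stage 37/38 the response of msc.S was 1.56 ± 0.50 lower on the log2 scale with ERFE MO1 than with ERFE MO2, a difference of -1.56 with a 95% interval of -2.57 to -0.55 (edgeR, unadjusted p = 0.0035, adjusted p = 0.73). With the replicate block the adjusted p was 0.05, just under the threshold, with 141 genes called in all. Without ERFE MO1 replicate 2 the difference was -1.49 ± 0.54 (adjusted p = 0.72). At stage 41 the difference for myog.L was -0.80 ± 0.27 (unadjusted p = 0.005, adjusted p = 1).

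Averaged over both morpholinos, msc.S and myog.L were lower at stage 37/38 and mef2c.L at stage 41. These means take in the ERFE MO1 libraries that gave the calls above, so they are no separate evidence. For each of these copies the fall was larger with ERFE MO1, and ERFE MO2 alone gave no call. The means thus do not show a fall shared by both morpholinos. The mean response of msc.S was -1.21 ± 0.25 (edgeR, adjusted p = 0.012) and that of myog.L was -0.54 ± 0.13 (0.048), 2 calls of 12 where 0.71% of all genes were called. At stage 41 mef2c.L was at -0.26 ± 0.07 (0.027), 1 call of 12 against 4.04% of all genes. At stage 35/36 no copy was called by edgeR, 0.761% of all genes were, 2 copies had an unadjusted p under 0.05, against 9.55% of all genes, and msc.S alone was called by DESeq2. Without the library that stands apart, the mean response there was -1.14 for msc.L and -0.72 for msc.S (edgeR, adjusted p = 0.23 and 0.27). With the replicate block both msc copies were also called at stage 35/36 (adjusted p = 0.0035 for L and 0.002 for S) and at stage 41 (0.00069 for L and 0.0021 for S). It further called msc.L (0.00049) and myog.S (0.0045) at stage 37/38, and both myod1 copies, higher, at stage 41 (0.015 for L and 0.014 for S). That fit called 1793, 2023 and 6030 of all 31817 genes over the stages.

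These mean responses also turned on single libraries. The call of myog.L was lost without any 1 of 8 libraries of its comparison (adjusted p = 0.076 to 0.17) or of 14 others (0.051 to 0.057). The 8 include ERFE MO1 replicate 2, which resembles the library that stands apart (0.094). Without that replicate the mean response of msc.S was -1.18 ± 0.27 (0.028), and msc.L was called as well (-1.46 ± 0.35, 0.038). The call of msc.S was lost without ERFE MO2 replicate 1 of stage 37/38 (0.051). That of mef2c.L at stage 41 was lost without ERFE MO1 replicate 1 or 2, ERFE MO2 replicate 3, 10 ng cMO replicate 2 or 20 ng cMO replicate 1 (0.052 to 0.07).

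The comparisons of cMO groups with uninjected embryos gave no call for any copy, but at stage 37/38 most copies were lower by sign. In the 6 comparisons of 10 or 20 ng cMO with uninjected embryos edgeR and DESeq2 called no copy, where edgeR called 0.00629% of all genes with 10 ng at each stage and 0.0157%, 0.0126% and 0.0126% with 20 ng. 1 copy, mef2c.L with 20 ng cMO at stage 37/38, had an unadjusted p under 0.05 (edgeR, log2 fold change -0.23 ± 0.10, unadjusted p = 0.027, adjusted p = 1). Over all genes the share was 1.27%, 1.42% and 1.35% with 10 ng over the stages and 2.05%, 1.81% and 1.85% with 20 ng. By sign 4, 10 and 10 of the 12 copies were lower with 10 ng cMO over the stages, against 50%, 50.5% and 49.2% of all genes. With 20 ng cMO 7, 12 and 6 were, against 51%, 49.3% and 47.6%. The 2 amounts share the uninjected libraries, and these signs were not tested. Against uninjected embryos in place of 10 ng cMO, ERFE MO1 at stage 41 gave calls for msc.S (-1.46 ± 0.35, adjusted p = 0.019), msc.L (-1.60 ± 0.44, 0.046), myog.L (-0.73 ± 0.19, 0.036) and mef2c.L, among 594 genes in all. At stage 37/38 that control gave calls for myog.S (-0.84 ± 0.21, 0.043) and mef2c.L (-0.45 ± 0.10, 0.017) and missed msc.L (-1.80 ± 0.47, 0.053), with 299 genes called in all.

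Over the 15 group means the lowest msc.S was that of ERFE MO1 at stage 37/38 (0.829 ± 0.158 CPM, SD, n = 3). The next were ERFE MO1 at stage 35/36 (1.08 ± 0.639 CPM), ERFE MO2 at stage 35/36 (1.64 ± 0.818 CPM) and ERFE MO1 at stage 41 (1.67 ± 0.423 CPM), neighbours that overlapped within their spread. Without the library that stands apart the mean of ERFE MO2 at stage 35/36 was 2.08 CPM (n = 2), above ERFE MO1 at stage 41 and uninjected at stage 35/36 (2.03 ± 0.411 CPM). The highest was uninjected at stage 41 (4.60 ± 0.304 CPM), next to 10 ng cMO at stage 41 (3.86 ± 0.606 CPM). For myog.L the 3 ERFE MO1 groups held the 3 lowest means, at 5.78 ± 0.857, 6.49 ± 0.825 and 6.18 ± 1.07 CPM from stage 35/36 to stage 41, so that its level in ERFE MO1 embryos differed between stages by less than the SD within a group. That order rests on single libraries: ERFE MO2 at stage 35/36 followed at 6.64 ± 1.64 CPM and was at 6.39 CPM without the library that stands apart, and ERFE MO1 at stage 37/38 was at 6.66 CPM without replicate 2.

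Of the 8 copies that changed with development, 7 had the opposite sign with ERFE MO1 at stage 41, against 41.5% of all genes that changed with development. The exception was myf5.S. At stages 35/36 and 37/38 the counts were 8 and 6, against 46.5% and 57.8%, and with ERFE MO2 they were 3, 4 and 6 in stage order, against 39.4%, 57.5% and 56.2%. Without the library that stands apart the count for ERFE MO2 at stage 35/36 was 5, against 60.4%, and without ERFE MO1 replicate 2 that for ERFE MO1 at stage 37/38 was 7, against 61%. These are counts of signs, most of them of changes that passed no test with a morpholino. The development comparison uses uninjected embryos and the ERFE comparisons use cMO embryos, so they share no library.

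**Figure D3:**
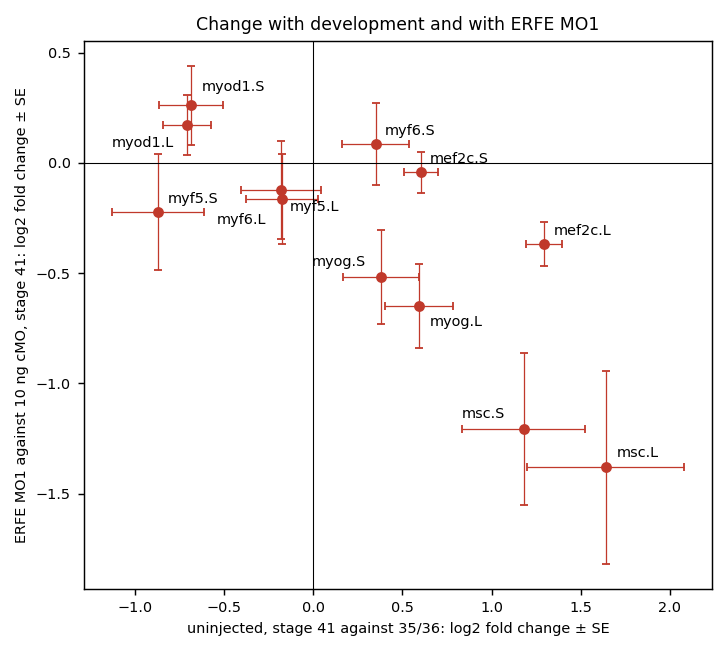
Log2 fold change of each gene copy in uninjected embryos at stage 41 against 35/36 (x axis) and in ERFE MO1 against 10 ng cMO embryos at stage 41 (y axis), with SE bars. mef2c.L, msc and myog lie in the lower right, higher with development and lower with ERFE MO1, and the 2 myod1 copies lie in the upper left.

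Partners of the MyoD family showed no call. Of 14 copies of partners such as the E proteins and the other mef2 genes, edgeR called 0 in each of the 6 ERFE comparisons, and DESeq2 also called 0. With ERFE MO1 an unadjusted p under 0.05 was found for 2, 4 and 3 of them over the stages, against 6.38%, 7.21% and 11.9% of all genes, and with ERFE MO2 for 1, 0 and 1, against 5.35%, 5.2% and 8.69%. Their median log2 fold changes with ERFE MO1 over stages 35/36, 37/38 and 41 were -0.06, -0.10 and -0.08.

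Among 20 copies of inhibitors of the family edgeR called 1, at stage 41 with ERFE MO1, where 1.51% of all genes were called, and DESeq2 called 1 at stage 37/38 and 2 at stage 41. Over the stages 3, 4 and 6 copies had an unadjusted p under 0.05 with ERFE MO1, against 6.38%, 7.21% and 11.9% of all genes. With ERFE MO2 1, 0 and 2 copies did, against 5.35%, 5.2% and 8.69%. The edgeR call was id3.S, whose protein binds E proteins and so keeps MyoD from pairing with them. It had 255.8, 239.5 and 237.3 CPM in ERFE MO1 embryos at stage 41, against 176.8, 190.3 and 196.1 CPM in 10 ng cMO embryos. The groups did not overlap, at a log2 fold change of 0.38 ± 0.09 (edgeR, adjusted p = 0.026). Against uninjected embryos it was 0.23 ± 0.09 (adjusted p = 0.27), and it was lost when any 1 of 5 libraries of the comparison was left out (0.059 to 0.1).

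Among 20 copies of fusion and neuromuscular junction genes, which the family activates, 1 fell and 1 rose by edgeR with ERFE MO1. The calls were 1, 2 and 0 over stages 35/36, 37/38 and 41, where 0.39%, 0.6% and 1.51% of all genes were called, and DESeq2 called 1, 2 and 1. Over the stages 1, 5 and 7 copies had an unadjusted p under 0.05 with ERFE MO1, against 6.38%, 7.21% and 11.9% of all genes. With ERFE MO2 1, 3 and 4 copies did, against 5.35%, 5.2% and 8.69%. tmem8c.L, the older symbol of myomaker (mymk), a membrane protein that myoblasts need to fuse, had 2.80, 3.90 and 3.27 CPM in ERFE MO1 embryos at stage 37/38, against 5.55, 6.67 and 8.18 CPM in 10 ng cMO embryos. It was lower by a log2 fold change of -1.03 ± 0.23 (edgeR, adjusted p = 0.025), at the stage where myog.L was also lower. chrng.L, the gamma subunit of the embryonic acetylcholine receptor, went up, with 33.8, 27.6 and 40.3 CPM in ERFE MO1 embryos at stage 37/38, against 19.5, 18.1 and 21.9 CPM in 10 ng cMO embryos (0.77 ± 0.16, adjusted p = 0.012). At stage 35/36 chrng.L was at 0.68 ± 0.16 (0.046), a call lost without any 1 of 5 libraries of the comparison (0.071 to 0.45) or of 17 others (0.05 to 0.056). The call of tmem8c.L was lost without any 1 of 4 libraries of its comparison (0.089 to 0.23), and so was that of chrng.L at stage 37/38 (0.066 to 0.11). Against uninjected embryos chrng.L was at 0.34 ± 0.16 at stage 35/36 (0.65) and at 0.60 ± 0.16 at stage 37/38 (0.063).

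Differentiated muscle genes gave a single call by edgeR and 2 by DESeq2, with ERFE MO1 at stage 41. Of 32 copies of skeletal sarcomere and fibre genes edgeR called mybpc1.S, a slow-fibre myosin binding protein, lower (-2.15 ± 0.56, adjusted p = 0.041), where 1.51% of all genes were called. The level of mybpc1.S was low, at 0.182, 0.189 and 0.617 CPM in ERFE MO1 embryos, against 0.868, 1.32 and 2.29 CPM in 10 ng cMO embryos. Its call was lost without any 1 of 4 libraries of the comparison (0.062 to 0.26). Over the stages 1, 0 and 11 of the 32 copies had an unadjusted p under 0.05 with ERFE MO1, against 6.38%, 7.21% and 11.9% of all genes. With ERFE MO2 1, 1 and 3 copies did, against 5.35%, 5.2% and 8.69%. The median log2 fold change at stage 41 was -0.21 with ERFE MO1 and -0.18 with ERFE MO2, each against its cMO. It was -0.15 with 10 ng cMO and -0.14 with 20 ng cMO, each against uninjected embryos. Both msc copies and myog.L were called lower at stage 37/38. The median log2 fold change of the 32 copies at that stage was -0.125 with ERFE MO1 and -0.0447 with ERFE MO2, each against its cMO. It was -0.149 with 10 ng cMO and -0.137 with 20 ng cMO, each against uninjected embryos. A summed level is weighted to the copies of highest level and can differ from the median. The summed level of the 32 copies at stage 37/38 was 19630 to 23830 CPM in ERFE MO1 embryos. In 10 ng cMO embryos it was 20110 to 23950 CPM, and the ranges overlap. At stage 41 it was 20500 to 29830 CPM in ERFE MO1 embryos and 21210 to 25780 CPM in 10 ng cMO embryos.

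Mef2c is also a gene of heart, vessels and neurons, and the marker lists of those cells did move in part. The 16 endothelial copies had median log2 fold changes of -0.35, -0.37 and -0.40 with ERFE MO1 over the 3 stages, and of -0.30, -0.34 and -0.20 with ERFE MO2, against medians near 0 over all genes. Over the stages 5, 8 and 8 copies had an unadjusted p under 0.05 with ERFE MO1, against 6.38%, 7.21% and 11.9% of all genes. With ERFE MO2 3, 8 and 5 copies did, against 5.35%, 5.2% and 8.69%. By edgeR the calls were tek.S (-0.89 ± 0.18, adjusted p = 0.0056) and tie1.S (-0.59 ± 0.16, 0.044) lower with ERFE MO1 at stage 41, and tie1.S lower with ERFE MO2 at that stage (-0.66 ± 0.16, 0.045). DESeq2 called 5 and 2 of the 16 copies at stage 41 with ERFE MO1 and ERFE MO2, and 1 with each at stage 37/38. Over all genes edgeR called 1.51% and 0.412% at stage 41 with ERFE MO1 and ERFE MO2, while DESeq2 called 732 and 309 genes there and 350 and 78 at stage 37/38. The edgeR calls of tie1.S were lost without any 1 of 10 libraries with ERFE MO1 (0.05 to 0.18) and of 17 with ERFE MO2 (0.05 to 0.25), and that of tek.S without any 1 of 3 (0.05 to 0.071). Their summed level at stage 37/38 was 172.5 to 183.1 CPM in ERFE MO1 embryos and 222.5 to 246 CPM in 10 ng cMO embryos, and at stage 41 it was 140 to 176.5 CPM in ERFE MO1 embryos and 175.4 to 227.5 CPM in 10 ng cMO embryos. With ERFE MO2 at stage 37/38 it was 172.4 to 195.8 CPM, against 221.5 to 252.7 CPM with 20 ng cMO, while mef2c.L was at 0.06 ± 0.10 there (95% interval -0.14 to 0.26). The part of these cells in the mef2c result was not tested.

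The 22 heart copies held calls in both directions. Over the stages 3, 4 and 9 copies had an unadjusted p under 0.05 with ERFE MO1, against 6.38%, 7.21% and 11.9% of all genes. With ERFE MO2 3, 7 and 6 copies did, against 5.35%, 5.2% and 8.69%. With ERFE MO1 at stage 41 myh6.L and myh6.S, the heart myosin heavy chain, were lower (-1.27 ± 0.30, adjusted p = 0.021, and -1.57 ± 0.37, 0.023), and nppb.S, a natriuretic peptide gene, was higher (3.03 ± 0.67, 0.012), as it was at the 2 earlier stages. The control level of nppb.S was low. At stage 41 it had 9.16, 6.13 and 2.59 CPM in ERFE MO1 embryos, against 0.945, 0.643 and 0.587 CPM in 10 ng cMO embryos. With ERFE MO2 at stage 41 tnni3.S was lower (-0.83 ± 0.20, 0.045), a call lost without any 1 of 30 libraries (0.05 to 0.22). The others were lost at stage 41 without any 1 of 3 libraries for myh6.L (0.055 to 0.16), of 2 for myh6.S (0.16 to 0.19) and of 3 for nppb.S (0.056 to 0.11), whose earlier calls were lost without any 1 of 5 at stage 35/36 (0.05 to 0.14) and of 3 at stage 37/38 (0.069 to 0.13). DESeq2 called 1, 1 and 4 heart copies with ERFE MO1 over the stages and 1, 1 and 3 with ERFE MO2, where it called 228, 350 and 732 genes and 45, 78 and 309 genes in all. Over all genes edgeR called 0.39%, 0.6% and 1.51% with ERFE MO1 over the stages and 0.412% with ERFE MO2 at stage 41. The summed heart level at stage 41 was 3063 to 5333 CPM in ERFE MO1 embryos and 3500 to 4489 CPM in 10 ng cMO embryos. Of 14 neuronal copies edgeR called 0 in the 6 comparisons, with unadjusted p under 0.05 for at most 1, and DESeq2 called 0. Their summed level at stage 41 was 830.5 to 850.2 CPM in ERFE MO1 embryos and 729.8 to 834.5 CPM in 10 ng cMO embryos. The part of heart and neurons in the result was not tested either.

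Msc is expressed in the mesoderm of the pharyngeal arches. The last list marks mesenchyme of pharyngeal arch and limb type in general, and not that mesoderm alone. Of 16 copies edgeR called 0 in each of the 6 comparisons, and DESeq2 called 1 at each of stages 37/38 and 41 with ERFE MO1. At stage 37/38 their summed level was 398.2 to 430.7 CPM in ERFE MO1 embryos and 427.3 to 453.5 CPM in 10 ng cMO embryos. At stage 41 it was 483.2 to 564.9 CPM in ERFE MO1 embryos and 418.9 to 458.7 CPM in 10 ng cMO embryos, with 6 copies at an unadjusted p under 0.05, against 11.9% of all genes. With ERFE MO1 the median log2 fold change of the list was -0.09 at stage 37/38 and 0.20 at stage 41. It thus lay on the side of msc at the first of these stages and not at the second. With ERFE MO2 the median was 0.0244 at stage 37/38 and 0.205 at stage 41. The summed level at stage 41 was 476.8 to 528.2 CPM in ERFE MO2 embryos and 409.7 to 455.9 CPM in 20 ng cMO embryos. There 1 copy had an unadjusted p under 0.05, against 8.69% of all genes. The part of arch mesenchyme or arch mesoderm in the msc result was not tested. The list shares twist1 and tcf21 with the inhibitors and hand2 with the heart list.

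The median share of the L copy in a gene's counts differed most between stages 41 and 35/36 for mef2c, myf5, myf6 and msc. These differences were not tested, and of the 6 genes mef2c alone had libraries of the 2 stages that did not overlap. The L copy held 51.4% to 56.2% of mef2c counts over the 15 libraries of stage 35/36, 54.3% to 60.2% at stage 37/38 and 60.4% to 68.3% at stage 41. For myf5 the share of L was 43.6% to 55.9% at stage 35/36 and 55.6% to 66.7% at stage 41, with medians of 51.7% and 60.2%. For myf6 the medians were 40.8%, 38.5% and 31.4% over the 3 stages, with ranges of 33.1% to 43.7% at stage 35/36 and 25.4% to 38.3% at stage 41 that overlap. For msc the medians were 31.2%, 32.6% and 43.3%, with ranges of 20.5% to 46.4% at stage 35/36 and 35.5% to 53.4% at stage 41 that overlap as well. For myod1 and myog the medians stayed between 35.8% and 40.2%. Without the library that stands apart the medians of stage 35/36 were 51.1% for myf5 and 41.3% for myf6, and the range of mef2c was the same. Transcript lengths were not used, so these shares set no order between the copies, and reads that both copies share could be assigned to either.

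At stage 41 the mef2c share also separated the morpholino groups. L held 60.4% to 61.5% of mef2c counts in ERFE MO1 embryos, against 65.0% to 68.3% in 10 ng cMO embryos and 64.5% to 66.2% in uninjected embryos. With ERFE MO2 it held 63.9% to 64.1%, against 66.1% to 67.5% in 20 ng cMO embryos. Neither ERFE group overlapped its control, and both lay below it. Of the other genes at that stage, only myod1 with ERFE MO2 also had a share apart from its control. Its L copy held 39.1% to 40.5%, against 37.1% to 38.6% in 20 ng cMO embryos. These differences in share were not tested, and how often the shares of other genes separate in this way was not counted.

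**Figure D4:**
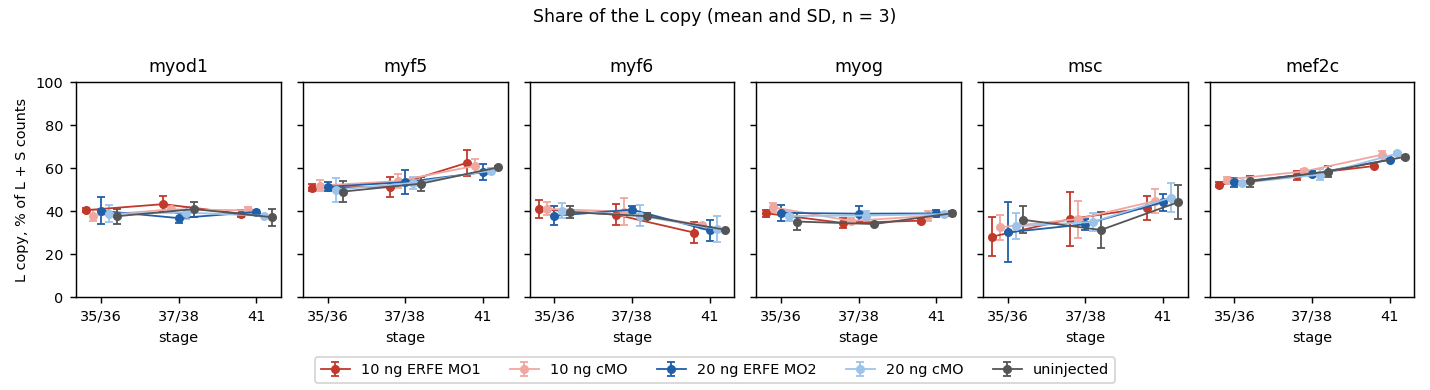
Share of the L copy in the summed L and S counts of each gene (y axis, %) by stage (x axis) and condition (colour), as mean and SD of 3 libraries. The mef2c share climbs from 51.4% to 56.2% at stage 35/36 to 60.4% to 68.3% at stage 41, with ERFE MO1 the lowest group at that stage.

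By RefSeq's table for the X. laevis v10.1 assembly, all 12 copies were matched by symbol. myf5 and myf6 are neighbours on chromosomes 3L and 3S, myod1 lies on 4L and 4S, and myog on 2L and 2S beside adora1. msc lies on 6L and 6S between eya1 and trpa1, and mef2c on 1L and 1S beside cetn3. The build behind the counts is not given in the sources, so no coordinates are printed.

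The genes most like each gene's copy of higher mean level were found by Pearson's r of log2 CPM over the 15 group means, which share their stages and libraries and carry no p. For mef2c.L they were ptx3.S (r = 0.991), hnf4b.S (0.989) and ybx3.S (0.989), with mef2c.S at 0.975. For msc.S they were pdgfra.S (0.958), ctdspl2.S (0.947) and gbas.L (0.938), with msc.L at 0.943. For myog.S they were slc16a10.S (0.947), frmd5.L (0.94) and tmem8c.L (0.937), with myog.L at 0.935. For myod1.S they were trub1.L (0.956), t2.S (0.953) and foxd3.L (0.953), with myod1.L at 0.92. For myf6.S they were ube2h.L (0.941), fis1.S (0.939) and tmem115.L (0.936), while myf6.L was at -0.277. For myf5.L, at lower values, they were arl13b.S (0.893), polr2k.L (0.887) and gpr161.S (0.882), with myf5.S at 0.845.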

How the data were processed

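Whole-embryo RNA was extracted with Trizol and made into libraries with a TruSeq RNA v2 kit, per the labels' protocols. The deposited values are raw counts per gene and library. Per the submitters' processing notes the tools were bcl2fastq 2.17.1.14, FastQC 0.11.5, STAR 2.5.2a, featureCounts 1.5.0-p1 and DESeq2 1.8.2. The genome build, and how reads shared by L and S copies were counted, are not given in the sources.

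Counts were fitted in R 4.3.3 with edgeR 4.0.16 (quasi-likelihood test, TMM scaling, filterByExpr with a minimum count of 10, 1 term per group over 45 libraries), which was tested on simulated data. P-values are two-sided and adjusted by Benjamini-Hochberg over 31817 genes, and a call is an adjusted p under 0.05. Fold changes use a prior count of 0.125, and log2 CPM for likeness a prior count of 3. CPM are counts scaled to the TMM library size. Named are all 12 copies, up to 3 called genes per list, comparison and direction with the smallest p, and the 3 genes most like the higher copy of each symbol. The members and lists were chosen with earlier results of these data known. A list of factors upstream of the family is not reported here. Intervals cover the spread between libraries only.

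Same-numbered libraries deviated together: 35 of 36 pairs had a correlation over 0.1 (lowest 0.0777, median 0.49), and 11 of 12 comparisons qualified as paired, with the numbers taken from the titles. The comparison of ERFE MO2 at stage 35/36, which holds the library that stands apart, did not. The main fit has no term for this pairing, so a missing call there is not a missing call in a paired fit. Calls in the marker lists were not counted with the replicate block. Alternatives were RLE scaling, no filter, a lane term, the replicate block, uninjected controls, only the groups compared, DESeq2 1.42.0 and leaving out each library.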

Additional observations from a re-analysis of the deposited data

How the results depend on the processing

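Values in this paragraph are numbers of the 12 copies called. For ERFE MO1 the replicate block gave 3 at stage 35/36 in place of 0 and 5 at stage 37/38 in place of 3, while there a fit of only the groups compared gave 0, no filter 2 and uninjected controls and DESeq2 4. At stage 41, in place of 1, no filter gave 0, only the groups compared 0, the lane term 4, uninjected controls 4, DESeq2 4 and the block 5. For ERFE MO2 at stage 41 the block gave 1 in place of 0. In uninjected embryos at stage 37/38 against 35/36, in place of 1, no filter and only the groups compared gave 0, and the lane term and DESeq2 gave 3. At stage 41 against 37/38, in place of 4, RLE scaling and DESeq2 gave 5 and the lane term 6. For the difference between the morpholinos the block gave 1 at stage 37/38 in place of 0. For the mean response at stage 35/36, in place of 0, the lane term gave 2, the block 2 and DESeq2 1. At stage 37/38, in place of 2, no filter and only the groups compared gave 1, and the lane term, the block and DESeq2 gave 4. At stage 41, in place of 1, only the groups compared gave 0, DESeq2 2, the lane term 3 and the block 5. The block without the library that stands apart, chosen after seeing the data, gave 3, 5 and 5 for ERFE MO1 over the stages and 1 for ERFE MO2 at stage 41. It gave 1 for the difference between the morpholinos at stages 37/38 and 41, and 2, 4 and 6 for the mean response. That fit called 1081, 1519 and 5121 genes in all for ERFE MO1 over the stages and 2363 for ERFE MO2 at stage 41. It called 249 and 402 genes for those differences and 1397, 2578 and 6683 for the mean response. The causes were not tested. Over all 31817 genes the block also called more: 795, 1158 and 4256 genes for ERFE MO1 over the stages in place of 124, 191 and 479, 1846 for ERFE MO2 at stage 41 in place of 131, and 1793, 2023 and 6030 for the mean response in place of 242, 226 and 1286. At stage 41 with ERFE MO1 the lane term called 1566 genes in all, DESeq2 732, uninjected controls 594, no filter 389 and only the groups compared 2. In uninjected embryos at stage 37/38 against 35/36, in place of 23, the lane term called 509 genes, DESeq2 216, and no filter and only the groups compared 0. At stage 41 against 37/38, in place of 9575, the lane term called 13022, DESeq2 9972 and RLE scaling 9492. For the mean response the lane term called 596, 762 and 2980 over the stages and DESeq2 425, 479 and 1675. No filter called 174 there at stage 37/38, and only the groups compared 326 at stage 37/38 and 260 at stage 41. The 5 at stage 41 against 37/38 in uninjected embryos was the only one of 24 counts that differed under RLE scaling. No gene called in either of the fits compared changed sign. Of 15718 single-gene results under the alternatives, 290 changed sign without a call in either fit.

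Leaving out 1 library gave 0 to 2, 1 to 3 and 0 to 2 calls for ERFE MO1 over the stages, and 0 to 0 for ERFE MO2, cMO against uninjected and all differences of responses. In uninjected embryos it gave 0 to 2 at stage 37/38 against 35/36, 2 to 5 at stage 41 against 37/38 and 6 to 8 at stage 41 against 35/36. For the mean response it gave 0 to 2, 0 to 3 and 0 to 2. Between stages of uninjected embryos the replicate block gave no value, since blocks lie within a stage. At 6 to 184 counts per library, msc.L carries the least depth of the 12 copies.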
